A study of Mus musculus with 12 samples.

Results

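The genes described here build and run the DNA replication machinery: the origin recognition complex, the factors that license origins, the MCM helicase, the proteins that fire origins, and the polymerases, sliding clamp and single-strand binding proteins of the fork. They are 46 genes, chosen by symbol from 24391 in the count table, and all 46 were found. All 46 also passed the filter on low counts, which left 17115 genes for testing, and the lowest count of a member in any library was 546. Total RNA was sequenced as 12 libraries from 4 female mouse embryonic stem cell (mESC) lines, hybrids of C57BL/6J-129/SvJ and Mus musculus castaneus. Every line carries 1 allele of a Cre recombinase at Rosa26 (Rs26+/CreERT) that 4-hydroxytamoxifen (OHT) activates. Lines 5.3 and 5.16 (replicates 1 and 2) are Rif1+/+ and are called WT, and lines 15.10 and 16.9 (replicates 3 and 4) are Rif1F/F, with both Rif1 alleles floxed. Each line gave 1 library without OHT, 1 after 2 days of OHT as mESC, and 1 after OHT and 2 further days of culture as embryoid bodies (EB). This makes 6 groups of 2: WT before OHT, F/F before OHT, WT mESC, KO mESC, WT EB and KO EB. The WT mESC and EB received OHT as well, so Cre activation is shared by both genotypes after OHT. The titles of the F/F libraries before OHT carry 2 readings, and the undeleted one was taken from their lack of OHT. Per the labels' protocols, the mESC medium held serum, leukemia inhibitory factor, the MEK inhibitor PD0325901 and CHIR99021, which blocks GSK3. The flow cell named in the labels was the same within a condition and differed between conditions, so effects of condition and of flow cell cannot be told apart, while libraries of both genotypes shared the flow cell within a condition. Each genotype is 2 lines, and what else distinguishes these lines cannot be told apart from an effect of Rif1. The labels do not say that lines or libraries are independent derivations, so p-values measure the spread between these libraries only.

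In a dividing cell, the origin recognition complex (ORC) marks origins, and CDC6 and CDT1 load MCM helicase rings there before S phase, which geminin restrains afterwards. Kinases, among them CDC7 with DBF4, together with TICRR, TOPBP1 and RECQL4 then recruit CDC45 and GINS, which turns the loaded ring into an active helicase, and polymerases, the clamp PCNA with its loader RFC, and RPA follow at the fork. RIF1 is known to counteract CDC7-dependent firing by recruiting protein phosphatase PP1 and to set replication timing. Many of these genes are transcribed at the G1/S transition under E2F factors, and mESC are known for rapid cycles with a short G1.

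Counts per library summed to between 28600870 and 64808897, and levels are given as CPM, in which counts are divided by the library size after scaling by the TMM method. Rif1, the targeted gene, was at 1537 and 1752 CPM in WT before OHT, 1172 and 1172 in F/F before OHT, 1605 and 1455 in WT mESC, 702 and 662 in KO mESC, 1382 and 1342 in WT EB and 789 and 845 in KO EB. Its level was lower in KO than in WT mESC (log2 fold change -1.17 ± 0.08, adjusted p = 4.4e-09) and in KO than in WT EB (-0.74 ± 0.08, adjusted p = 6.7e-07), where ± gives the standard error, and it was already lower in F/F than in WT before OHT (-0.49 ± 0.08, adjusted p = 7.4e-05). The count table gives reads per gene, so the floxed exons were not looked at separately. Summed levels of 10 mESC markers were 5308 to 7238 CPM in the 8 mESC libraries and 2655 to 2929.8 CPM in EB, and none of the 10 was at 0. Summed levels of 10 early EB and epiblast markers were 2776 to 2791 CPM in WT EB and 1445 to 1460.3 in KO EB, 340.2 to 345 in WT mESC and 235 to 239 in KO mESC, and 294 to 306 in WT and 225 to 229 in F/F before OHT. The 16 feeder fibroblast markers summed to 75.04 to 82.1 CPM in WT EB and 111 to 119.97 in KO EB, 95.3 to 119 in WT mESC and 145 to 151 in KO mESC, and 128 to 137 in WT and 118 to 124 in F/F before OHT, with 0 to 4 of the 16 at 0 in both libraries of a group. Both sums lay apart between genotypes in all 3 conditions. WT mESC replicate 1 stood apart: Lars2 took 0.869% of its counts and at most 0.140% elsewhere. Counts or medians of members that change without it are given beside the results. F/F replicate 3 before OHT was below replicate 4 in 43 of 46 members, by a median of 0.15 on the log2 scale, and it held the lowest level of all 12 libraries for 18 members.

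Per kilobase of exon, 5 of the 6 MCM2-7 subunits had the highest levels of the 46 transcripts. The median over the 12 libraries was 155 CPM per kb for Mcm3, 137 for Mcm4, 137 for Mcm6, 126 for Mcm5 and 86.2 for Mcm2, the 5 highest levels. Mcm4 and Mcm6, next to each other in this order, had the same median at this precision. Mcm7 came ninth at 62.7 CPM per kb, after Tipin at 84.6, Rpa1 at 77.5 and Rpa2 at 69.9. Members at the lower end included Orc4 at 9.27, Recql4 at 8.90, Gins3 at 7.32 and, lowest, Mcm9 at 2.52 CPM per kb. Within 1 complex the levels were uneven, from 9.27 (Orc4) to 47.5 CPM per kb (Orc6) in ORC and from 7.32 (Gins3) to 49.1 (Gins4) in GINS. Exon lengths are of the GENCODE union of transcripts, which need not be the lengths of the isoforms expressed.

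**Figure D1:**
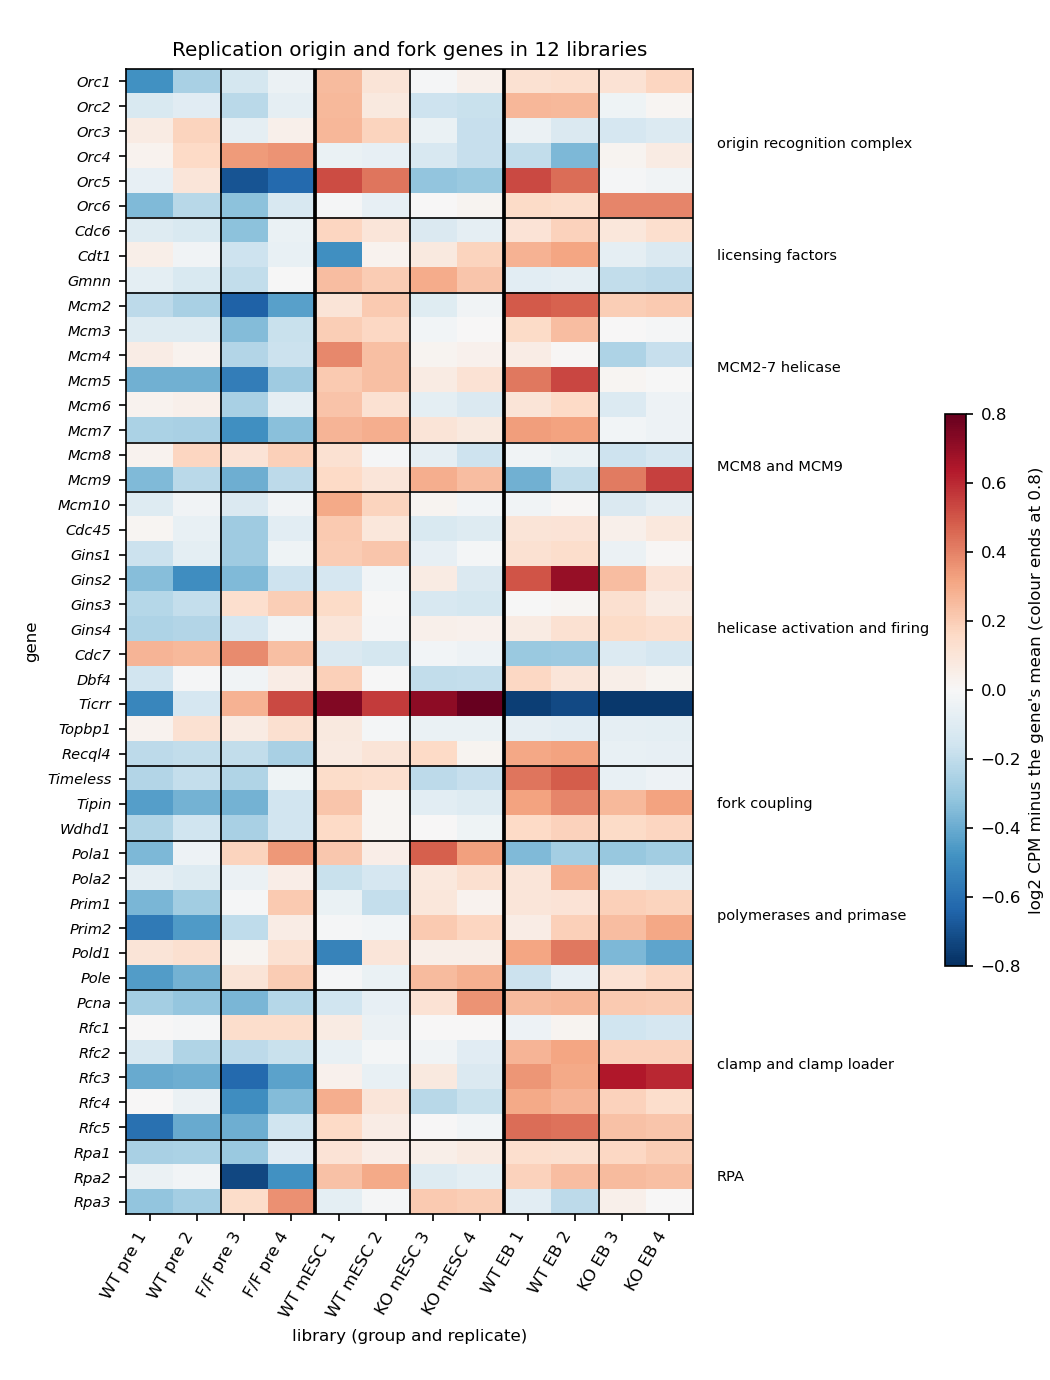
The 46 genes (rows, by role) in the 12 libraries (columns, by group and replicate), coloured by log2 CPM minus the gene's mean over the 12 libraries. MCM2-7 rows are blue in the F/F libraries before OHT, with Mcm2 at 372 and 431 CPM. Mcm2, Mcm3, Mcm5 and Mcm7 were below their means in WT before OHT as well. Ticrr is high in mESC after OHT and low in EB.

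Genotypes were compared within each condition. Before OHT, 10 members were higher and 6 lower in F/F than in WT, where 19.9% of all genes tested were higher and 17.5% lower (adjusted p under 0.05, edgeR quasi-likelihood test). In mESC after OHT, 6 were higher and 17 lower in KO, beside 19.8% and 18.6% of all genes. In EB, 5 were higher and 15 lower in KO, beside 20.7% and 19.7% of all genes. The median log2 difference of the 46 was 0.000 before OHT, -0.10 in mESC and -0.08 in EB, while that of all genes tested was -0.002, -0.003 and -0.02. In KO, 17 of 46 members (37.0%) lower in mESC and 15 of 46 (32.6%) lower in EB stood beside backgrounds under 20%, and in both the higher members were a smaller share than the background. With library totals alone as the scale, the split was 8 higher and 11 lower in mESC and 7 higher and 12 lower in EB. The share of all genes on that scale is not given here. In mESC fewer members were called when WT mESC replicate 1 or KO mESC replicate 4 was left out. Without WT mESC replicate 1 fewer of all genes were called as well. The median log2 difference was then -0.04 for the 46 and 0.02 for all genes. In EB fewer members were called without WT EB replicate 2 or without either KO library. For these EB settings, and without KO mESC replicate 4, the share of all genes is not given here. The groups were 2 libraries each, and in bulk RNA fewer cells in S phase and less RNA per cell cannot be told apart. Of the early EB and epiblast markers, 4 of 10 were lower and 1 higher in F/F before OHT, 5 and 2 in KO mESC and 7 and 0 in KO EB. Of the 13 feeder fibroblast markers tested, 2 were lower and 3 higher before OHT, 2 and 6 in KO mESC and 1 and 5 in KO EB. Their part in the members' differences was not tested.

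The 3 genotype comparisons use different libraries of the same lines. In all 3, Mcm2, Mcm4, Mcm6 and Orc5 were lower and Pole was higher in the Rif1F/F lines, and of these 5 Orc5 alone kept its calls in every alternative in all 3. Lower in both KO mESC and KO EB but not called before OHT were Mcm3, Mcm7, Orc2 and Timeless, of which Timeless also passed the test that the difference in mESC departed from that before OHT. Timeless kept both calls in every alternative. The mESC call of Mcm3 was lost without WT mESC replicate 1 or KO mESC replicate 3 or 4 or with library totals as the scale (-0.13 to -0.20, adjusted p up to 0.162). That of Mcm7 was lost without WT mESC replicate 1 or 2 or KO mESC replicate 3 or 4 or with library totals as the scale (-0.13 to -0.20, adjusted p up to 0.154). Before OHT, Mcm3 was called without F/F replicate 4 before OHT or with library totals as the scale (-0.19 to -0.25, adjusted p 0.0176 to 0.0182). Mcm7 likewise was called without F/F replicate 4 before OHT or with library totals as the scale (-0.18 to -0.24, adjusted p 0.0172 to 0.0255). Of the 10 members higher in F/F before OHT, 4 were polymerase or primase genes (Pola1, Prim1, Prim2 and Pole). The others were Orc1, Orc4, Rfc5, Rpa3 and, of the 11 firing genes, Ticrr and Gins3, a share of 18.2% beside 19.9% of all genes.

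**Figure D2:**
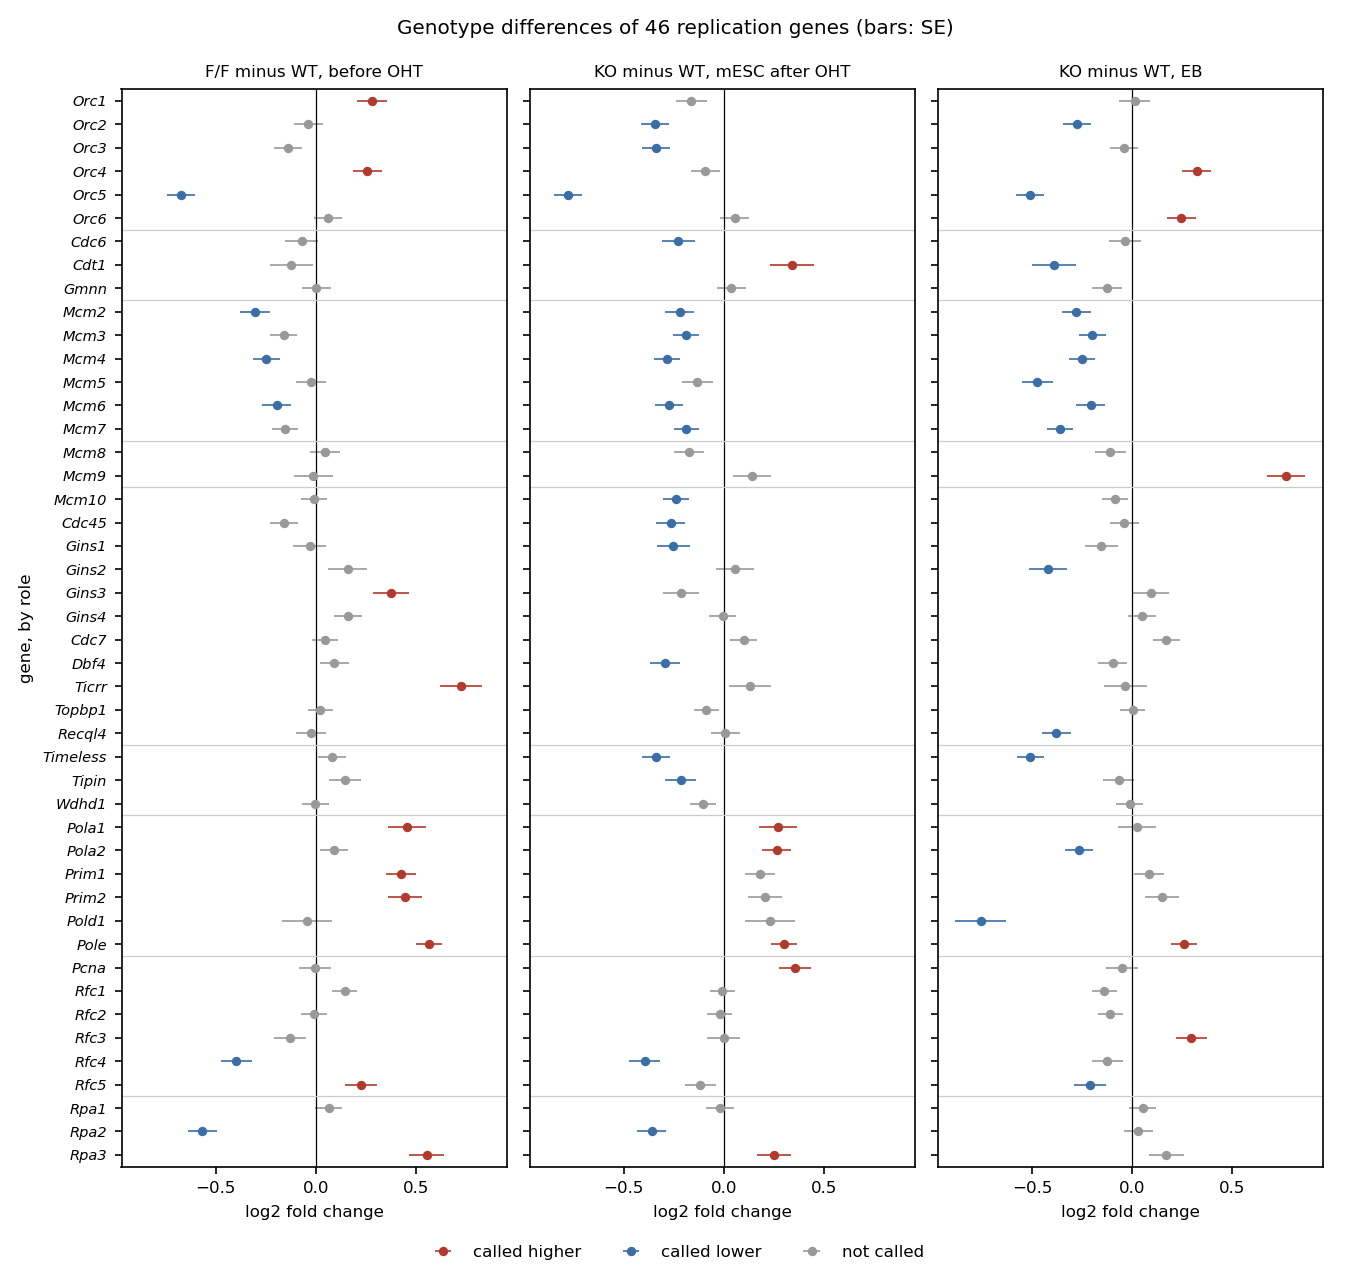
Log2 fold change of each of the 46 genes (points, bars give the standard error) for F/F against WT before OHT, KO against WT mESC and KO against WT EB, with colour for calls at adjusted p under 0.05. All 6 MCM2-7 points lie left of 0 in the 3 panels, and the Orc5 points lie at -0.67, -0.78 and -0.51.

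Among the 6 ORC genes, Orc5 was lower in the Rif1F/F lines in every condition, and the other subunits went different ways. Orc5, a subunit of the ORC core that contacts origin DNA, was at 84.9 and 95.2 CPM in WT before OHT, 55.2 and 57.8 in F/F before OHT, 128 and 119.96 in WT mESC, 71.6 and 72.5 in KO mESC, 128 and 122 in WT EB and 88.3 and 87.2 in KO EB. The groups did not overlap in any condition, and both F/F libraries before OHT were the lowest of the 12. The difference was -0.67 ± 0.07, adjusted p = 1.1e-06 before OHT, -0.78 ± 0.07, adjusted p = 1.9e-07 in mESC and -0.51 ± 0.07, adjusted p = 1.7e-05 in EB. Orc5 rose after OHT in WT (0.46 ± 0.07, adjusted p = 5.2e-05) and in the Rif1F/F lines (0.35 ± 0.07, adjusted p = 8.2e-04). The change of its genotype difference after OHT was -0.11 ± 0.10, adjusted p = 0.538, which did not pass. In EB the difference was smaller than in mESC (0.27 ± 0.10, adjusted p = 0.048). This Orc5 call was lost without WT mESC replicate 1, KO mESC replicate 3 or 4, WT EB replicate 1 or 2 or KO EB replicate 3 or 4 or with no filter on low counts or the block for cell line (0.22 to 0.31, adjusted p up to 0.185).

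Orc2 and Orc3 were lower in KO mESC. Orc2, which joins Orc3 in the ORC core, was at 164 and 168 CPM in WT before OHT, 153 and 169.98 in F/F before OHT, 214 and 188 in WT mESC, 159 and 158 in KO mESC, 215 and 214 in WT EB and 174 and 180.4 in KO EB. Libraries of the 2 genotypes overlapped before OHT and were apart after it. The difference was -0.34 ± 0.07, adjusted p = 9.9e-04 in mESC and -0.28 ± 0.07, adjusted p = 0.00467 in EB, the latter lost without KO EB replicate 3 (-0.25, adjusted p = 0.0569). Of the exonic bases of Orc2, 29.8% overlap Nif3l1 on the opposite strand, and reads of the overlap may have been assigned to either. The KO difference of Nif3l1 was -0.01 in mESC and -0.12 (adjusted p = 0.226) in EB. With OHT, Nif3l1 rose by 0.59 in WT and by 0.49 in the Rif1F/F lines. Orc3, the partner of Orc2, was at 156 and 169 CPM in WT before OHT, 142 and 154 in F/F before OHT, 179 and 169 in WT mESC, 144 and 131 in KO mESC, 145 and 138 in WT EB and 136 and 138 in KO EB. KO mESC stood below WT mESC (-0.34 ± 0.07, adjusted p = 0.00104), whereas the EB groups were close. In WT, Orc3 fell from mESC to EB (-0.30 ± 0.07, adjusted p = 0.0011), and in KO it did not pass (-0.01 ± 0.07, adjusted p = 0.953). The difference between these changes was 0.30 ± 0.10, adjusted p = 0.0322. This Orc3 call was lost without WT mESC replicate 1, KO mESC replicate 4, WT EB replicate 2 or KO EB replicate 3 or 4 or with the block for cell line (0.23 to 0.31, adjusted p up to 0.174).

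Orc4, the gene of an ATP-binding ORC subunit, changed order between genotypes. It was at 71.1 and 78.1 CPM in WT before OHT, 88.6 and 89.8 in F/F before OHT, 67.2 and 66.8 in WT mESC, 63.97 and 61.6 in KO mESC, 60.9 and 54.5 in WT EB and 71.05 and 73.01 in KO EB. The F/F libraries were highest before OHT, KO mESC lay just below WT mESC, and KO EB lay above WT EB with no overlap. The genotype difference was 0.26 ± 0.07, adjusted p = 0.00877 before OHT, -0.09 ± 0.07, adjusted p = 0.322 in mESC and 0.32 ± 0.07, adjusted p = 0.00188 in EB, the first of these lost without WT replicate 1 before OHT (0.19, adjusted p = 0.117). In the Rif1F/F lines Orc4 fell with OHT (-0.51 ± 0.07, adjusted p = 3.6e-05), and the fall differed from the change in WT (-0.35 ± 0.10, adjusted p = 0.042). That second call was lost without WT replicate 1 before OHT, F/F replicate 3 or 4 before OHT, WT mESC replicate 1 or KO mESC replicate 3 or 4 or with library totals as the scale, the groups compared alone or the block for cell line (-0.27 to -0.38, adjusted p up to 0.186). The opposite movement from mESC to EB, -0.22 in WT and 0.20 in KO, gave a difference of 0.42 ± 0.10, adjusted p = 0.00588, called in every alternative tried. Of the movements themselves, that in WT was lost without WT EB replicate 2 (-0.17, adjusted p = 0.108), and -0.33 without WT EB replicate 1. That in KO was lost without KO mESC replicate 3 or 4 or KO EB replicate 3 or 4 or with no filter on low counts (0.16 to 0.22, adjusted p up to 0.166).

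Orc1, the largest ORC subunit and an ATPase, was at 83.1 and 97.2 CPM in WT before OHT, 106 and 113 in F/F before OHT, 139 and 125 in WT mESC, 116 and 120.2 in KO mESC, 127 and 128 in WT EB and 126 and 131 in KO EB. WT before OHT was the lowest group, F/F before OHT was next, and the 4 groups after OHT lay above both. Orc1 was higher in F/F than in WT before OHT (0.28 ± 0.08, adjusted p = 0.00836), and rose with OHT in WT (0.55 ± 0.08, adjusted p = 2.6e-05) but did not pass in the Rif1F/F lines (0.11 ± 0.08, adjusted p = 0.273), a difference of -0.44 ± 0.11, adjusted p = 0.0192. The call before OHT was lost without WT replicate 1 before OHT or F/F replicate 4 before OHT (0.17 to 0.23, adjusted p up to 0.156). The call of the difference was lost without WT replicate 1 before OHT, F/F replicate 4 before OHT, WT mESC replicate 1 or KO mESC replicate 3 or 4 or with the groups compared alone (-0.34 to -0.47, adjusted p up to 0.114). Orc6, the subunit least tightly bound to the complex, was at 92.1 and 101 CPM in WT before OHT, 93.7 and 108 in F/F before OHT, 117 and 112 in WT mESC, 118 and 119.6 in KO mESC, 131 and 129.5 in WT EB and 154 and 154 in KO EB. It was highest in KO EB, above WT EB (0.25 ± 0.07, adjusted p = 0.0105). This Orc6 call was lost without WT EB replicate 2 or KO EB replicate 3 or 4 (0.24 to 0.25, adjusted p up to 0.0657). From mESC to EB Orc6 rose in both WT (0.19 ± 0.07, adjusted p = 0.0303) and KO (0.38 ± 0.07, adjusted p = 2.0e-04), the first of them lost without WT mESC replicate 1 or 2 or WT EB replicate 1 or 2 or with no filter on low counts, the DESeq2 Wald test or the groups compared alone (0.14 to 0.17, adjusted p up to 0.199).

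Of the licensing genes, Cdt1 differed most. Cdt1, whose protein loads MCM rings together with CDC6, was at 192 and 183 CPM in WT before OHT, 166 and 178 in F/F before OHT, 133 and 190.1 in WT mESC, 197 and 211 in KO mESC, 226 and 232 in WT EB and 177 and 172 in KO EB. WT mESC replicate 1 was the lowest of all 12 libraries, and KO EB lay below WT EB with no overlap. Cdt1 was lower in KO EB (-0.39 ± 0.11, adjusted p = 0.00855). This Cdt1 call was lost without WT EB replicate 2 or KO EB replicate 4 (-0.36 to -0.37, adjusted p up to 0.0624). In mESC it was higher in KO (0.34 ± 0.11, adjusted p = 0.0206). This Cdt1 call was lost without WT mESC replicate 1 or KO mESC replicate 4 or with the groups compared alone (0.12 to 0.35, adjusted p up to 0.291), and without WT mESC replicate 2 it was 0.62. The rise from WT mESC to WT EB was 0.50 ± 0.11, adjusted p = 6.3e-04, and 0.23, adjusted p = 0.0181 without WT mESC replicate 1 and 0.78 without WT mESC replicate 2. The difference between the EB changes in KO and WT (-0.73 ± 0.15, adjusted p = 0.00207) was called in all alternatives tried.

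Geminin (Gmnn), the inhibitor of CDT1, was called between conditions and not between genotypes. It was at 58.1 and 56.2 CPM in WT before OHT, 53.5 and 61.02 in F/F before OHT, 72.5 and 70.5 in WT mESC, 75.2 and 71.4 in KO mESC, 57.7 and 58.3 in WT EB and 53.5 and 52.9 in KO EB. The 4 mESC libraries after OHT were the highest and did not overlap the other 8. Gmnn rose with OHT in WT (0.32 ± 0.07, adjusted p = 0.00145) and in the Rif1F/F lines (0.36 ± 0.07, adjusted p = 8.8e-04) and fell from mESC to EB in both (-0.30 and -0.46). The genotype differences were 0.04 ± 0.07, adjusted p = 0.735 in mESC and -0.12 ± 0.07, adjusted p = 0.191 in EB. Cdc6, the ATPase that helps ORC load MCM rings, was lower in KO mESC (-0.23 ± 0.08, adjusted p = 0.0345). This Cdc6 call was lost without WT mESC replicate 1 or KO mESC replicate 3 or 4 or with library totals as the scale (-0.17 to -0.25, adjusted p up to 0.208). Its levels in mESC after OHT were 69.2 and 65.7 CPM in WT and 56.7 and 58.6 CPM in KO.

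The MCM2-7 genes, which encode the 6 subunits of the replicative helicase ring, had the lower level in the Rif1F/F lines in all 3 conditions. The 6 differences were negative before OHT, in mESC and in EB, with medians of -0.18, -0.21 and -0.27. The test called 3 of 6 lower before OHT, 5 in mESC and 6 in EB, and none higher, beside 17.5%, 18.6% and 19.7% of all genes. The summed MCM2-7 level was 2805 and 2779.9 CPM in WT and 2300.5 and 2601 CPM in F/F before OHT, 3568 and 3501 CPM in WT and 3017 and 3058 CPM in KO mESC, and 3651 and 3748 CPM in WT and 3011 and 3050.3 CPM in KO EB. The 2 libraries of a genotype lay on 1 side of the other genotype in every condition. With library totals as the scale, the counts were 5, 2 and 4. The count also moved when 1 library was left out, and before OHT it was 2 with the groups compared alone. It was 1 of 6 in mESC without WT mESC replicate 1 or without KO mESC replicate 4, 2 without KO mESC replicate 3 and 3 without WT mESC replicate 2. In EB it was 3 without KO EB replicate 3 and 4 without any other 1. Before OHT it ran from 1, without F/F replicate 3 or WT replicate 1, to 5, without F/F replicate 4.

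Mcm2 was at 505 and 487 CPM in WT before OHT, 372 and 431 in F/F before OHT, 627 and 675 in WT mESC, 544 and 572 in KO mESC, 819 and 808 in WT EB and 667 and 673 in KO EB. Both libraries of the Rif1F/F lines were below both of the WT lines in each condition. Its difference was -0.30 ± 0.07, adjusted p = 0.00326 before OHT, -0.22 ± 0.07, adjusted p = 0.0227 in mESC and -0.28 ± 0.07, adjusted p = 0.00515 in EB, and only the last was called in every alternative. The call before OHT was lost without F/F replicate 3 before OHT (-0.20, adjusted p = 0.0519), and that in mESC was lost without WT mESC replicate 2 or KO mESC replicate 3 or 4 or with library totals as the scale (-0.16 to -0.26, adjusted p up to 0.158). Mcm2 rose from mESC to EB in WT (0.32) and KO (0.26), the latter lost without KO mESC replicate 3 (0.22, adjusted p = 0.0618). Mcm4 was at 504 and 492 CPM in WT before OHT, 410.1 and 429 in F/F before OHT, 631 and 569.8 in WT mESC, 491 and 496 in KO mESC, 503 and 486 in WT EB and 407 and 424 in KO EB. It went the other way from mESC to EB, falling by 0.28 in WT and by 0.25 in KO on the log2 scale. Its genotype difference was -0.25 ± 0.07, adjusted p = 0.00681 before OHT, -0.28 ± 0.07, adjusted p = 0.00253 in mESC and -0.25 ± 0.07, adjusted p = 0.0055 in EB. The first was lost without WT replicate 1 before OHT (-0.23, adjusted p = 0.0519). The mESC call of Mcm4 was lost without WT mESC replicate 1 (-0.19, adjusted p = 0.0623). In EB it was lost without WT EB replicate 1 or KO EB replicate 3 (-0.21 to -0.22, adjusted p up to 0.0723). Mcm6 was at 653 and 659 CPM in WT before OHT, 536 and 610.1 in F/F before OHT, 752 and 697 in WT mESC, 607 and 593 in KO mESC, 688 and 717 in WT EB and 594 and 623 in KO EB, and it was the 1 MCM2-7 gene not called with OHT in either genotype, though in WT it was called without WT mESC replicate 2 (0.20, adjusted p = 0.0438). Its difference before OHT (-0.20 ± 0.07, adjusted p = 0.0385) was lost without WT replicate 1 or 2 before OHT or F/F replicate 3 before OHT or with the groups compared alone (-0.10 to -0.20, adjusted p up to 0.325). In mESC it was -0.27 ± 0.07, adjusted p = 0.00567, lost without WT mESC replicate 1 or KO mESC replicate 4 (-0.20 to -0.26, adjusted p up to 0.0772). In EB it was -0.21 ± 0.07, adjusted p = 0.0271, lost without WT EB replicate 1 or 2 or KO EB replicate 3 or 4 or with library totals as the scale (-0.15 to -0.24, adjusted p up to 0.192).

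Of the MCM2-7 genes, Mcm5 alone had a change of its genotype difference between conditions called, alternatives aside. It was at 373 and 373 CPM in WT before OHT, 333 and 401 in F/F before OHT, 564 and 575 in WT mESC, 510.3 and 528 in KO mESC, 653 and 706 in WT EB and 493 and 487 in KO EB. The genotypes overlapped before OHT, came apart by a small margin in mESC, and were far apart in EB. The difference was -0.02 ± 0.08, adjusted p = 0.843 before OHT, -0.13 ± 0.08, adjusted p = 0.182 in mESC and -0.47 ± 0.08, adjusted p = 1.0e-04 in EB. The EB difference departed from that before OHT by -0.45 ± 0.11, adjusted p = 0.00442, called in every alternative, and from that in mESC by -0.34 ± 0.11, adjusted p = 0.0264. This second Mcm5 call was lost without WT mESC replicate 1, KO mESC replicate 3 or 4, WT EB replicate 2 or KO EB replicate 3 or 4 (-0.29 to -0.36, adjusted p up to 0.118). Mcm7 was at 342 and 341 CPM in WT EB and 268 and 264 CPM in KO EB (-0.36 ± 0.06, adjusted p = 2.2e-04). The departure of this Mcm7 difference from that before OHT did not pass (-0.20, adjusted p = 0.0939). Without F/F replicate 3 before OHT it was -0.29 and was called. Of 50-base words in Mcm7 transcripts, 23.3% also occur in another gene, most often Gm5487, so part of its count is uncertain. Mcm3 was at 646 and 689.8 CPM in WT EB and 584 and 579 CPM in KO EB (-0.20 ± 0.07, adjusted p = 0.0241). This Mcm3 call was lost without WT EB replicate 2 or KO EB replicate 3 or 4 or with library totals as the scale (-0.14 to -0.21, adjusted p up to 0.233).

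**Figure D3:**
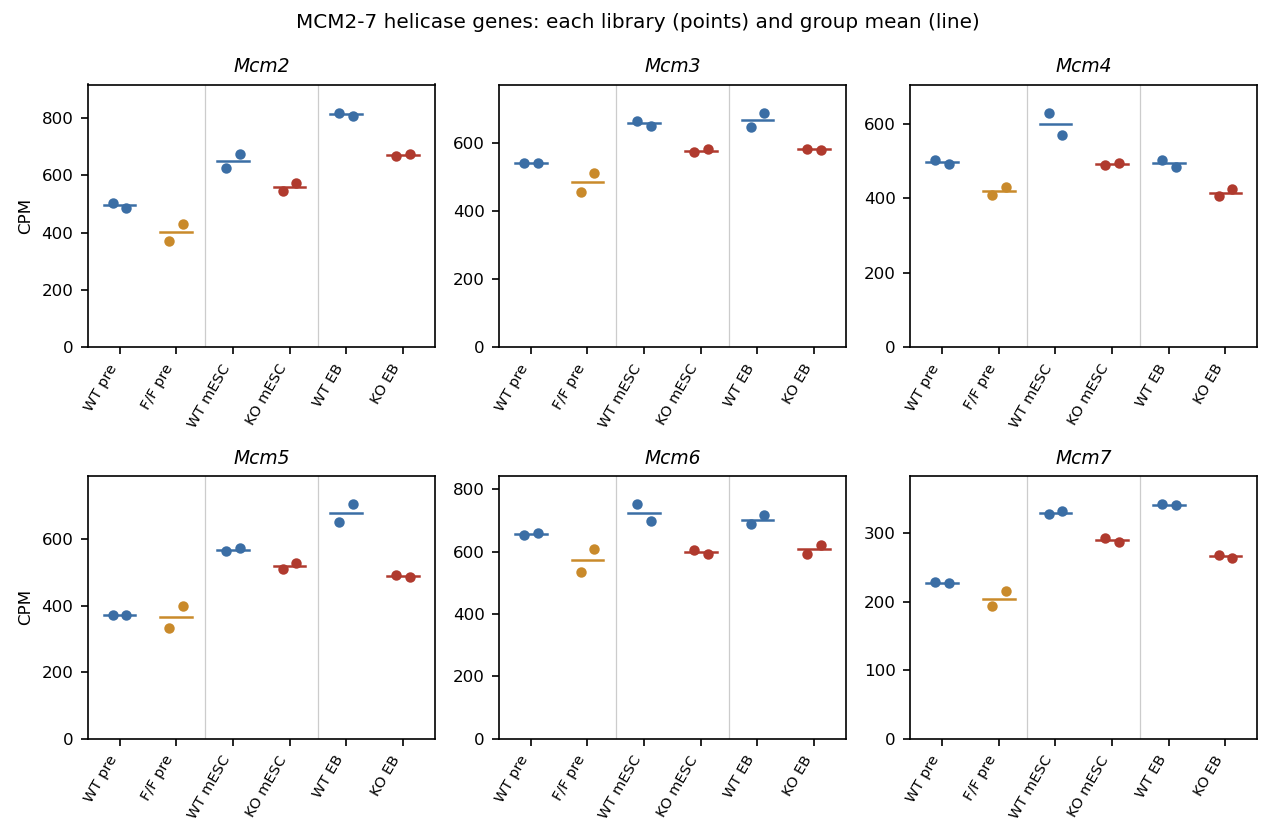
CPM of the 6 MCM2-7 genes in each library (points) by group, with the group mean as a line, on axes from 0. KO EB points lie below WT EB points in all 6 panels, from 487 and 493 against 653 and 706 CPM for Mcm5 to 579 and 584 against 646 and 690 CPM for Mcm3.

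Promoters of MCM2-7 genes, all 6 of which were lower in KO EB, are shown because E2F-type sites are a known feature of replication genes. Promoter windows of 300 bases, from 250 bases before to 50 after the start site, were found for 36 of the 46 members in RefSeq sequences of build GRCm38.p6, and they carried no values of these data. The motifs searched on both strands were TTTCCCGC, TTTCGCGC, TTTGCCGC and TTTGGCGC, whose reverse complements can overlap one another. At least 1 of them was in 14 of 36 members (38.9%), in 9 of 27 other replication genes (33.3%), in 1 of 17 G2/M genes and in 4.15% of the genes tested with a window of this length. A match is a description of letters, not a bound site. Windows of Mcm3, Mcm5, Mcm6 and Mcm7 held matches, written in capitals below 5′ to 3′ on the gene's strand. A second Mcm7 window and the Mcm2 window held none, and Mcm4 had no window in the table.
Mcm3 promoter, chr1:20820263-20820562, minus strand: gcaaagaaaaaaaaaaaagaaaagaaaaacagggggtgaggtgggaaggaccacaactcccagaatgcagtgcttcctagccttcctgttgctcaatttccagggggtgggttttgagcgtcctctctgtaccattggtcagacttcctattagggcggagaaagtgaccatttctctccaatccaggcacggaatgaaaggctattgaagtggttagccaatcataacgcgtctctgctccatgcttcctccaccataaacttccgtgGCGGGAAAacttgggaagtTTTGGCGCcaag
Mcm5 promoter, chr8:75109259-75109558, plus strand: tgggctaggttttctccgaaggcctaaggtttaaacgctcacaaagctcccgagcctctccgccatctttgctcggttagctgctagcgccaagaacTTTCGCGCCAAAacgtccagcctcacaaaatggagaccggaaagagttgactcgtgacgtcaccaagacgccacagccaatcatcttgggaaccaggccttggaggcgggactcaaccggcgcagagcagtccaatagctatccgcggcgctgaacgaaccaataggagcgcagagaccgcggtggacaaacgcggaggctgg
Mcm6 promoter, chr1:128359656-128359955, minus strand: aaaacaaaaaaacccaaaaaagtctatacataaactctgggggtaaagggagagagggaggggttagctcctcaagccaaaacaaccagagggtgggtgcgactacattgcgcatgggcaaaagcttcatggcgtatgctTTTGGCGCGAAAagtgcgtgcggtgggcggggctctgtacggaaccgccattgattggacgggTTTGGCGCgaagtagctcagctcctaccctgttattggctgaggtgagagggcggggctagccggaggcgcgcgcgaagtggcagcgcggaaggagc
Mcm7 promoter, chr5:138171834-138172133, minus strand: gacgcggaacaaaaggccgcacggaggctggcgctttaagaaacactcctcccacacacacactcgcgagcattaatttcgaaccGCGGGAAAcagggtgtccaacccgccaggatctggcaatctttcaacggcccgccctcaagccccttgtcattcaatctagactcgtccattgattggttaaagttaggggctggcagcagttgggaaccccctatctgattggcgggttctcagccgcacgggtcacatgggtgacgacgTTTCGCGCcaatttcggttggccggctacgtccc

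Calls are given side by side for members with and without a match. The shares of all genes were 24.9% higher in WT mESC than before OHT and 19.7% lower in KO EB. In WT mESC against WT before OHT, 8 of 14 members with a match and 15 of 22 without rose, with median log2 changes of 0.26 and 0.26. In KO against WT EB, 6 of 14 with a match and 6 of 22 without were lower, with medians of -0.08 and -0.05. Of the 4 MCM2-7 promoters shown, the largest genotype difference in EB belonged to Mcm5 (-0.47), and Mcm2, without a match, differed by -0.28.

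Mcm9, which with Mcm8 encodes a helicase of homologous recombination outside the MCM2-7 ring, was the member with the largest higher level in KO EB. It was at 18.5 and 20.4 CPM in WT before OHT, 18.1 and 20.5 in F/F before OHT, 26.4 and 25.2 in WT mESC, 28.9 and 28.01 in KO mESC, 18.1 and 20.6 in WT EB and 31.6 and 34.5 in KO EB. The KO EB libraries were the highest of the 12 and the WT EB libraries were near the level before OHT. Mcm9 rose with OHT in WT (0.41 ± 0.10, adjusted p = 0.00208) and in the Rif1F/F lines (0.56 ± 0.10, adjusted p = 2.2e-04). In EB it then fell in WT (-0.41 ± 0.10, adjusted p = 0.0012) and in KO did not pass (0.22 ± 0.10, adjusted p = 0.061), though it was called with library totals as the scale or the groups compared alone (0.18 to 0.24, adjusted p 0.0278 to 0.0429). KO EB exceeded WT EB by 0.77 ± 0.10, adjusted p = 7.2e-06, and this difference departed from that in mESC by 0.63 ± 0.14, adjusted p = 0.00238, both called in all alternatives. Asf1a, on the opposite strand, overlaps 19.2% of Mcm9 exonic bases, and its own KO difference in EB was 0.11 (adjusted p = 0.401). Asf1a rose with OHT in WT (0.31 ± 0.10, adjusted p = 0.0147) and did not pass in the Rif1F/F lines (0.21, adjusted p = 0.0907). From mESC to EB it rose by 0.53 in WT and by 0.60 in KO. Its part in the Mcm9 values was not tested. Mcm8 was at 54.1 and 59.8 CPM in WT before OHT, 57.2 and 60.4 in F/F before OHT, 57.7 and 52.6 in WT mESC, 50.5 and 47.3 in KO mESC, 51.9 and 51.1 in WT EB and 47.2 and 48.3 in KO EB. It fell with OHT in the Rif1F/F lines (-0.27 ± 0.08, adjusted p = 0.00945). This Mcm8 call was lost without F/F replicate 4 before OHT or KO mESC replicate 4 (-0.22, adjusted p up to 0.109).

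Of the 11 genes of helicase activation and origin firing, Ticrr spanned the widest range of any member. Ticrr encodes treslin, which brings CDC45 to the loaded helicase. It was at 165 and 217 CPM in WT before OHT, 289 and 344 in F/F before OHT, 398 and 350.2 in WT mESC, 391 and 427 in KO mESC, 141 and 144 in WT EB and 139.5 and 139 in KO EB. The 4 EB libraries and WT before OHT were low, and the 4 mESC libraries after OHT were the highest. Before OHT, F/F exceeded WT (0.73 ± 0.11, adjusted p = 4.0e-05), whereas in mESC (0.13 ± 0.10, adjusted p = 0.354) and EB (-0.03 ± 0.11, adjusted p = 0.825) the test was not passed. Ticrr rose with OHT in WT (0.97 ± 0.11, adjusted p = 2.8e-06) and in the Rif1F/F lines (0.37 ± 0.11, adjusted p = 0.00876), the latter lost without F/F replicate 3 before OHT or KO mESC replicate 4 (0.25 to 0.31, adjusted p up to 0.133). It then fell from mESC to EB by 1.39 in WT and 1.55 in KO on the log2 scale (adjusted p = 4.4e-09 and adjusted p = 1.2e-09), the largest change of any member between the conditions of 1 genotype. The genotype difference departed from that before OHT by -0.60 ± 0.15, adjusted p = 0.0216 in mESC and by -0.76 ± 0.15, adjusted p = 9.5e-04 in EB. The first of these was lost without WT replicate 1 before OHT, F/F replicate 4 before OHT, WT mESC replicate 1 or KO mESC replicate 3 or with the groups compared alone (-0.42 to -0.56, adjusted p up to 0.108). The second was called in every alternative.

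Gins3, a subunit of the GINS complex of the active helicase, moved opposite ways with OHT in the genotypes. It was at 16.9 and 17.3 CPM in WT before OHT, 21.7 and 22.6 in F/F before OHT, 21.9 and 19.7 in WT mESC, 18.1 and 17.9 in KO mESC, 19.7 and 19.96 in WT EB and 21.6 and 20.7 in KO EB. F/F lay above WT before OHT, and KO lay below WT in mESC, with no overlap in either. The difference before OHT was called in every alternative. That in mESC did not pass (-0.21, adjusted p = 0.0683). It was -0.12 without WT mESC replicate 1, and -0.29 without WT mESC replicate 2, where it was called. Gins3 rose with OHT in WT (0.29 ± 0.09, adjusted p = 0.0129) and fell in the Rif1F/F lines (-0.30 ± 0.09, adjusted p = 0.0123). The rise was lost without WT replicate 1 before OHT or WT mESC replicate 1 or with library totals as the scale or the groups compared alone (0.20 to 0.29, adjusted p up to 0.101). The fall was lost without F/F replicate 4 before OHT or KO mESC replicate 3 or 4 (-0.27 to -0.31, adjusted p up to 0.0787). The difference between them was -0.59 ± 0.13, adjusted p = 0.00931, the 1 member difference of this kind that was called in every alternative. Gins2, another GINS subunit, was at 34.1 and 30.5 CPM in WT before OHT, 33.7 and 38.4 in F/F before OHT, 39.2 and 42.5 in WT mESC, 45.01 and 39.8 in KO mESC, 61.2 and 69.7 in WT EB and 51.2 and 46.5 in KO EB. WT EB was highest, and KO EB lay between it and mESC. Its difference in EB was -0.42 ± 0.09, adjusted p = 0.00185, lost without WT EB replicate 2 (-0.31, adjusted p = 0.0504). Its rise from WT mESC to WT EB was 0.68 ± 0.09, adjusted p = 6.7e-06, and the departure of the EB difference from that before OHT was -0.58 ± 0.14, adjusted p = 0.00348, both called in every alternative. Gse1, on the opposite strand, overlaps 67.3% of Gins2 exonic bases, so the Gins2 count is uncertain. The KO difference of Gse1 in EB was 0.04 (adjusted p = 0.707). Gse1 itself rose from WT mESC to WT EB (0.27 ± 0.08, adjusted p = 0.00873). It was also higher in KO than in WT mESC (0.24 ± 0.08, adjusted p = 0.0334). Its part in the Gins2 values was not tested.

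CDC7 and DBF4 form the kinase whose action on the MCM ring RIF1 is known to counter. Cdc7 was at 85.3 and 84.7 CPM in WT before OHT, 91.9 and 83.6 in F/F before OHT, 65.3 and 64.2 in WT mESC, 69.8 and 68.8 in KO mESC, 57.5 and 57.9 in WT EB and 65.5 and 64.3 in KO EB. The 4 libraries before OHT were the highest, and the genotypes overlapped there. Cdc7 fell with OHT in both genotypes, by 0.39 in WT (adjusted p = 1.3e-04) and by 0.34 in the Rif1F/F lines (adjusted p = 5.7e-04) on the log2 scale, and was the 1 member called lower with OHT in WT. Alternatives added 3 members. Orc4 was called with library totals as the scale (-0.24, adjusted p = 0.016). Cdt1 was called without WT mESC replicate 2 or with no filter on low counts (-0.20 to -0.49, adjusted p 4.1e-05 to 0.0272). Pold1 was called without WT mESC replicate 2 or with library totals as the scale, no filter on low counts or the block for cell line (-0.28 to -0.64, adjusted p 2.3e-06 to 0.0385). KO and WT differed by 0.10 ± 0.07, adjusted p = 0.258 in mESC and by 0.17 ± 0.07, adjusted p = 0.0501 in EB, neither of which passed, though in EB it was called with DESeq2 size factors, library totals as the scale, the DESeq2 Wald test or the groups compared alone (0.18 to 0.23, adjusted p 0.0163 to 0.0377). Its fall from WT mESC to WT EB (-0.17 ± 0.07, adjusted p = 0.0359) was lost without WT mESC replicate 2 or WT EB replicate 1 or 2 or with library totals as the scale or the block for cell line (-0.15 to -0.20, adjusted p up to 0.0753). Dbf4, the activating subunit, was at 173 and 192 CPM in WT before OHT, 188 and 201 in F/F before OHT, 219.8 and 192 in WT mESC, 168 and 168 in KO mESC, 216 and 205 in WT EB and 198 and 196 in KO EB. KO mESC was the lowest group, below WT mESC (-0.29 ± 0.07, adjusted p = 0.00417). That call was lost without WT mESC replicate 1 (-0.18, adjusted p = 0.109). The departure from before OHT (-0.39 ± 0.10, adjusted p = 0.0301) was lost without WT replicate 1 before OHT, F/F replicate 4 before OHT, WT mESC replicate 1 or KO mESC replicate 3 or 4 or with library totals as the scale or the groups compared alone (-0.28 to -0.39, adjusted p up to 0.15).

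Recql4, a helicase of the firing step, was at 33.8 and 34.1 CPM in WT before OHT, 34.1 and 32.6 in F/F before OHT, 41.1 and 42.02 in WT mESC, 43.7 and 39.8 in KO mESC, 48.5 and 48.99 in WT EB and 37.6 and 37.4 in KO EB. WT EB was the highest group, with no overlap. KO EB was below it (-0.38 ± 0.07, adjusted p = 5.4e-04), a difference called in every alternative, while the mESC difference was 0.01 ± 0.07, adjusted p = 0.962. The remaining firing genes stayed closer together. Mcm10, Cdc45 and Gins1, which join or stabilise the active helicase, were each lower in KO mESC (-0.24, -0.27 and -0.25). The Mcm10 call was lost without WT mESC replicate 1 or KO mESC replicate 4 (-0.16 to -0.22, adjusted p up to 0.126). That of Cdc45 was lost without WT mESC replicate 1 or KO mESC replicate 3 (-0.19 to -0.25, adjusted p up to 0.108). That of Gins1 was lost without WT mESC replicate 1 or 2 or KO mESC replicate 3 or 4 or with library totals as the scale (-0.20 to -0.28, adjusted p up to 0.123). Gins4 rose with OHT in WT (0.29 ± 0.07, adjusted p = 0.00238). Topbp1, the scaffold that works with treslin, was called in none of the 10 comparisons, except with library totals as the scale (-0.15, adjusted p = 0.0335) for OHT in the Rif1F/F lines, and ran from 399 to 462 CPM.

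Of the 3 fork coupling genes, Timeless was lower in KO after OHT and not before. Timeless and Tipin encode the complex that couples helicase and polymerase. Timeless was at 128 and 132 CPM in WT before OHT, 127 and 147 in F/F before OHT, 166 and 165 in WT mESC, 129.7 and 132 in KO mESC, 202 and 211 in WT EB and 144 and 146 in KO EB. The genotypes overlapped before OHT and were apart in mESC and EB, and KO mESC lay within the range of the libraries before OHT. The difference was 0.08 ± 0.07, adjusted p = 0.379 before OHT, -0.34 ± 0.07, adjusted p = 8.5e-04 in mESC and -0.51 ± 0.07, adjusted p = 1.4e-05 in EB, the last a change of -29.7%. Timeless rose with OHT in WT (0.35 ± 0.07, adjusted p = 4.6e-04) and did not pass in the Rif1F/F lines (-0.07 ± 0.07, adjusted p = 0.449). The departure of the genotype difference from that before OHT was -0.42 ± 0.10, adjusted p = 0.0134 in mESC and -0.59 ± 0.10, adjusted p = 1.8e-04 in EB. The first was lost without WT replicate 1 before OHT, F/F replicate 4 before OHT or KO mESC replicate 3 or 4 or with the groups compared alone (-0.31 to -0.43, adjusted p up to 0.0662). The second was called in every alternative. Tipin was at 119 and 125 CPM in WT before OHT, 125 and 145 in F/F before OHT, 189 and 164 in WT mESC, 152 and 151 in KO mESC, 202 and 213 in WT EB and 193 and 202 in KO EB. It rose with OHT in WT (0.53 ± 0.08, adjusted p = 4.9e-05) and from mESC to EB in KO (0.38 ± 0.08, adjusted p = 4.8e-04). Its lower level in KO mESC (-0.22 ± 0.08, adjusted p = 0.0386) was lost without WT mESC replicate 1 or KO mESC replicate 3 or 4 or with library totals as the scale or the groups compared alone (-0.09 to -0.23, adjusted p up to 0.464). Wdhd1, which tethers polymerase alpha to the helicase, rose with OHT in WT (0.29 ± 0.07, adjusted p = 0.00175) and was not called between genotypes.

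Among the 6 polymerase and primase genes, those called in mESC were higher in KO. Before OHT 4 of 6 were higher in F/F and none lower, beside 19.9% of all genes higher. In mESC 3 of 6 were higher in KO and none lower, beside 19.8%, and in EB 1 was higher and 2 were lower, beside 20.7% and 19.7%. In mESC 5 were higher with library totals as the scale, and with no filter on low counts or with the groups compared alone 4 were. Leaving out 1 library changed the mESC count to between 2 and 4, and the count before OHT stayed at 4. In EB, without KO EB replicate 4, 0 was higher and 1 lower, and without WT EB replicate 1 or 2 the counts were 0 and 2 or 1 and 1. Pole, the catalytic subunit of the leading strand polymerase epsilon, was at 269 and 282 CPM in WT before OHT, 395 and 422 in F/F before OHT, 364 and 353 in WT mESC, 438 and 446 in KO mESC, 325 and 351 in WT EB and 396 and 411 in KO EB. The Rif1F/F lines were above the WT lines in every condition. The difference was 0.57 ± 0.06, adjusted p = 2.9e-06 before OHT, 0.30 ± 0.06, adjusted p = 0.00141 in mESC and 0.26 ± 0.06, adjusted p = 0.00425 in EB, the EB call lost without WT EB replicate 1 or KO EB replicate 4 (0.22 to 0.23, adjusted p up to 0.0525). It departed in EB from that before OHT by -0.31 ± 0.09, adjusted p = 0.0158. This Pole call was lost without WT replicate 1 before OHT, F/F replicate 4 before OHT, WT EB replicate 2 or KO EB replicate 3 (-0.25 to -0.29, adjusted p up to 0.0915). Pola1, the X-linked catalytic subunit of polymerase alpha, was at 315 and 393 CPM in WT before OHT, 456 and 514 in F/F before OHT, 468 and 419 in WT mESC, 562 and 507 in KO mESC, 316 and 334 in WT EB and 328 and 333 in KO EB. F/F exceeded WT before OHT (0.46 ± 0.09, adjusted p = 9.7e-04), KO exceeded WT in mESC (0.27 ± 0.09, adjusted p = 0.0297), and the EB groups met. The mESC call was lost without WT mESC replicate 2 or KO mESC replicate 3 (0.19, adjusted p up to 0.228). Pola1 fell from mESC to EB in WT (-0.45 ± 0.09, adjusted p = 4.6e-04) and KO (-0.69 ± 0.09, adjusted p = 5.7e-06).

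Pold1, the catalytic subunit of the lagging strand polymerase delta, had the largest lower level in KO EB of all members. It was at 266 and 271 CPM in WT before OHT, 251 and 269.8 in F/F before OHT, 171 and 265 in WT mESC, 255 and 256 in KO mESC, 308 and 331 in WT EB and 193 and 185 in KO EB. KO EB was below WT EB with no overlap, and WT mESC replicate 1, at 171 CPM, was the lowest of the 12. The EB difference was -0.76 ± 0.13, adjusted p = 1.3e-04, a change of -40.8%, and those in mESC and before OHT were 0.23 ± 0.13, adjusted p = 0.162 and -0.04 ± 0.12, adjusted p = 0.826, that in mESC called without WT mESC replicate 2 or with no filter on low counts (0.22 to 0.58, adjusted p 8.1e-06 to 0.0167). Pold1 rose from WT mESC to WT EB (0.55 ± 0.13, adjusted p = 9.8e-04), by 0.23, adjusted p = 0.0171 without WT mESC replicate 1 and by 0.90 without WT mESC replicate 2, and fell from KO mESC to KO EB (-0.43 ± 0.13, adjusted p = 0.00674). The EB difference departed from that in mESC by -0.99 ± 0.18, adjusted p = 5.9e-04 and from that before OHT by -0.71 ± 0.18, adjusted p = 0.00534, each called in every alternative.

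Pola2, the regulatory subunit of polymerase alpha, was at 98.9 and 96.8 CPM in WT before OHT, 101 and 108 in F/F before OHT, 92.03 and 94.9 in WT mESC, 110.3 and 114 in KO mESC, 111 and 127 in WT EB and 100.01 and 98.5 in KO EB. KO was above WT in mESC (0.26 ± 0.07, adjusted p = 0.00704) and below it in EB (-0.27 ± 0.07, adjusted p = 0.00606). The change between these was -0.53 ± 0.10, adjusted p = 8.6e-04 and was called in every alternative, whereas the EB call alone was lost without WT EB replicate 2 or KO EB replicate 4 (-0.15 to -0.25, adjusted p up to 0.172) and the mESC call lost without KO mESC replicate 4 (0.24, adjusted p = 0.067). Prim1, the primase catalytic subunit, was at 84.5 and 89.7 CPM in WT before OHT, 108 and 126 in F/F before OHT, 105 and 95.3 in WT mESC, 116 and 111 in KO mESC, 116 and 117 in WT EB and 124 and 123 in KO EB. Prim2, the large primase subunit, was at 40.9 and 44.3 CPM in WT before OHT, 52.7 and 63.3 in F/F before OHT, 60.3 and 59.8 in WT mESC, 70.1 and 68.3 in KO mESC, 63.3 and 69.3 in WT EB and 71.9 and 75.1 in KO EB. In both, WT before OHT was the lowest group and F/F was above it (0.42 ± 0.08, adjusted p = 2.9e-04 for Prim1 and 0.45 ± 0.08, adjusted p = 5.1e-04 for Prim2). Neither was called between genotypes after OHT. In alternatives, Prim1 in mESC was called without WT mESC replicate 1 or with library totals as the scale (0.24 to 0.27, adjusted p 0.0125 to 0.0299). Prim2 in mESC was called with library totals as the scale or the groups compared alone (0.21 to 0.26, adjusted p 0.0179 to 0.0306). In EB, Prim2 was called with the groups compared alone (0.16, adjusted p = 0.0479). Prim2 rose with OHT in both genotypes (0.50 in WT and 0.26 in the Rif1F/F lines, the latter lost without F/F replicate 3 before OHT or KO mESC replicate 3 or 4, 0.13 to 0.28, adjusted p up to 0.29, and 0.40 without F/F replicate 4 before OHT).

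**Figure D4:**
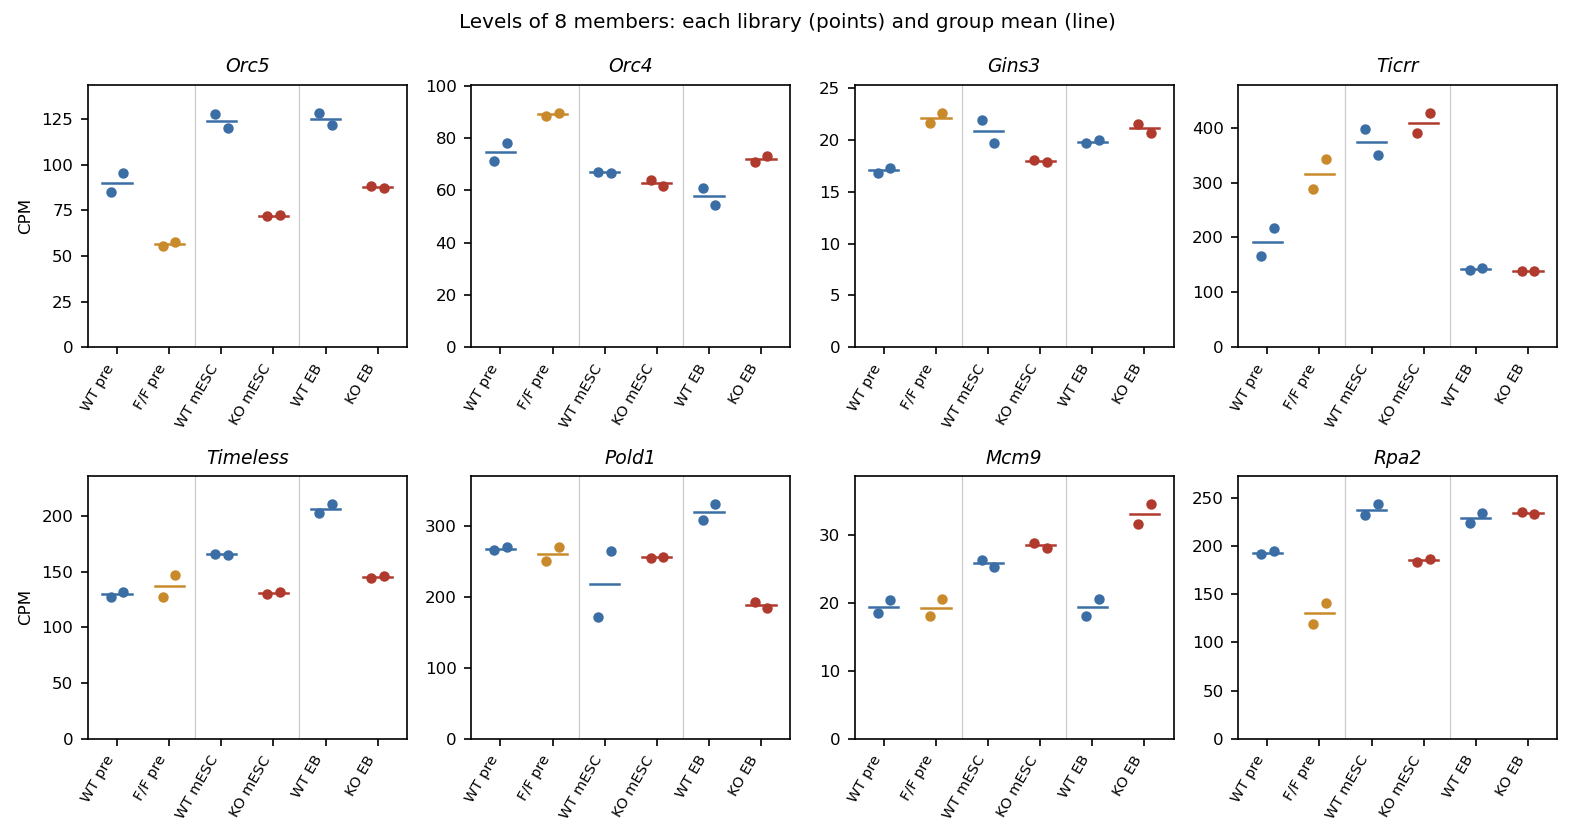
CPM of 8 members in each library (points) by group, with the group mean as a line, on axes from 0. Pold1 falls to 185 and 193 CPM in KO EB against 308 and 331 CPM in WT EB, Mcm9 is highest in KO EB, Orc5 and Rpa2 are lowest in F/F before OHT, and Ticrr is low in all EB.

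The clamp and its loader did not move as a unit. Pcna, the sliding clamp, was at 59.96 and 58.4 CPM in WT before OHT, 56.2 and 61.7 in F/F before OHT, 64.9 and 68.98 in WT mESC, 78.2 and 92.7 in KO mESC, 86.1 and 87.00 in WT EB and 83.7 and 83.3 in KO EB. KO mESC replicate 4 was the highest library. Pcna was higher in KO than in WT mESC (0.35 ± 0.08, adjusted p = 0.00195). This Pcna call was lost without KO mESC replicate 4 (0.23, adjusted p = 0.0746). It rose with OHT in the Rif1F/F lines (0.54 ± 0.08, adjusted p = 5.4e-05), where WT did not pass (0.18 ± 0.08, adjusted p = 0.0737), and their difference, 0.36 ± 0.11, adjusted p = 0.059, did not pass either. In WT it was called with no filter on low counts (0.19, adjusted p = 0.0454), and the difference was called without WT mESC replicate 2 or KO mESC replicate 3 or with library totals as the scale, no filter on low counts or the DESeq2 Wald test (0.35 to 0.47, adjusted p 0.0259 to 0.0473). Of 50-base words in Pcna, 19.1% occur in another gene, most often Pcna-ps2, so its count is uncertain. The small loader subunits Rfc3, Rfc4 and Rfc5 differed in direction. Rfc3 was at 45.9 and 46.3 CPM in WT before OHT, 39.3 and 45.04 in F/F before OHT, 62.1 and 58.3 in WT mESC, 64.1 and 56.1 in KO mESC, 77.5 and 74.7 in WT EB and 94.5 and 92.3 in KO EB. It was highest in KO EB, above WT EB (0.30 ± 0.08, adjusted p = 0.00656). This Rfc3 call was lost without KO EB replicate 3 (0.28, adjusted p = 0.0596). Rfc3 rose with OHT and again in EB in both genotypes. Rfc4 was at 61.6 and 59.7 CPM in WT before OHT, 43.7 and 48.4 in F/F before OHT, 75.1 and 65.97 in WT mESC, 52.8 and 54.5 in KO mESC, 75.8 and 74.4 in WT EB and 69.8 and 67.9 in KO EB. It was lower in the Rif1F/F lines before OHT (-0.40 ± 0.08, adjusted p = 5.9e-04) and in mESC (-0.40 ± 0.08, adjusted p = 5.8e-04), and in EB did not pass (-0.12 ± 0.08, adjusted p = 0.208). Rfc5 was at 77.02 and 88.3 CPM in WT before OHT, 89.00 and 104 in F/F before OHT, 130.4 and 121 in WT mESC, 117 and 115 in KO mESC, 159 and 158 in WT EB and 137 and 136 in KO EB. It was higher in F/F before OHT (0.22 ± 0.08, adjusted p = 0.0347) and lower in KO EB (-0.21 ± 0.08, adjusted p = 0.0403), a departure of -0.44 ± 0.11, adjusted p = 0.00667 that held in every alternative. The difference before OHT was lost without WT replicate 1 before OHT or F/F replicate 4 before OHT or with the groups compared alone (0.11 to 0.22, adjusted p up to 0.396), and 0.34 without F/F replicate 3. That in EB was lost without WT EB replicate 1 or 2 or KO EB replicate 3 or 4 or with DESeq2 size factors, library totals as the scale or the DESeq2 Wald test (-0.15 to -0.22, adjusted p up to 0.169). Of their exonic bases, 12.7% (Rfc4) and 10.7% (Rfc5) overlap a gene on the opposite strand. Rfc1, the large subunit, and Rfc2 were not called between genotypes in any condition, except that Rfc1 in EB was called with the groups compared alone (-0.13, adjusted p = 0.0472).

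The 3 RPA genes, whose products coat single-stranded DNA, went in different directions. Rpa2 was at 191 and 194 CPM in WT before OHT, 119 and 141 in F/F before OHT, 232 and 244 in WT mESC, 184 and 187 in KO mESC, 224 and 234 in WT EB and 235 and 233 in KO EB. Both F/F libraries before OHT were far below the rest, KO mESC was below WT mESC, and the EB groups overlapped. The difference was -0.57 ± 0.07, adjusted p = 9.7e-06 before OHT, -0.36 ± 0.07, adjusted p = 7.8e-04 in mESC and 0.03 ± 0.07, adjusted p = 0.764 in EB. The EB difference departed from that before OHT by 0.60 ± 0.10, adjusted p = 2.5e-04 and from that in mESC by 0.39 ± 0.10, adjusted p = 0.00826, both called in every alternative. Rpa3 was at 24.9 and 25.7 CPM in WT before OHT, 34.4 and 39.9 in F/F before OHT, 29.3 and 30.8 in WT mESC, 35.9 and 35.6 in KO mESC, 29.3 and 26.8 in WT EB and 31.9 and 31.1 in KO EB. F/F was above WT before OHT (0.55 ± 0.09, adjusted p = 8.1e-05), and KO was higher in mESC (0.25 ± 0.09, adjusted p = 0.0286). This Rpa3 call was lost without WT mESC replicate 1 or KO mESC replicate 3 or 4 (0.23 to 0.26, adjusted p up to 0.117). Rpa1, the large subunit, was not called between genotypes, and rose with OHT in WT (0.34 ± 0.07, adjusted p = 6.8e-04) and in the Rif1F/F lines (0.25 ± 0.07, adjusted p = 0.00695), the latter lost without F/F replicate 3 before OHT or KO mESC replicate 4 (0.15 to 0.24, adjusted p up to 0.11).

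Between the culture without OHT and mESC after 2 days of OHT, more replication genes rose than fell in both genotypes. In WT, 32 of 46 members rose and 1 fell, beside 24.9% and 24.2% of all genes, with a median log2 change of 0.29 against -0.002 over all genes. Without WT mESC replicate 1, 27 rose and 1 fell, beside 20.6% and 17.4%. In the Rif1F/F lines, 19 rose and 5 fell, beside 22.1% and 21.5% of all genes, with a median of 0.14. Of the members that rose, 18 rose in both, which is 56.2% of those in WT and 94.7% of those in the Rif1F/F lines. The overlap over all genes is not given here, so this share was not set against it. MCM2-7 rose in 5 of 6 in each genotype, beside 24.9% and 22.1% of all genes. The rise of Mcm5 was 0.61 in WT and 0.50 in the Rif1F/F lines. The other members with the largest rise in WT were Ticrr, Orc1 and Rfc5 (0.97, 0.55 and 0.61), and in the Rif1F/F lines Mcm9, Pcna, Rpa2 and Rfc3 (0.56, 0.54, 0.51 and 0.51). Without F/F replicate 3, 3 of the 6 MCM2-7 genes rose in the Rif1F/F lines. OHT and flow cell differ together here, as does the deletion in the Rif1F/F lines, and they cannot be told apart. The values by line are of the members alone, with no share or median of all genes given here. By line, 41 of 46 members were above their level before OHT in line 5.3 (median 0.32). The same held for 39 in line 5.16 (median 0.23), 39 in line 15.10 (0.23) and 29 in line 16.9 (0.08). Lines were paired by the titles, and deviations of same-line libraries of WT before OHT and WT mESC correlated at -0.14. Line 15.10 is the one whose library before OHT held the lowest levels, and without that library 15 members were called in the Rif1F/F lines, against 24 with it and 13 without KO mESC replicate 4.

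**Figure D5:**
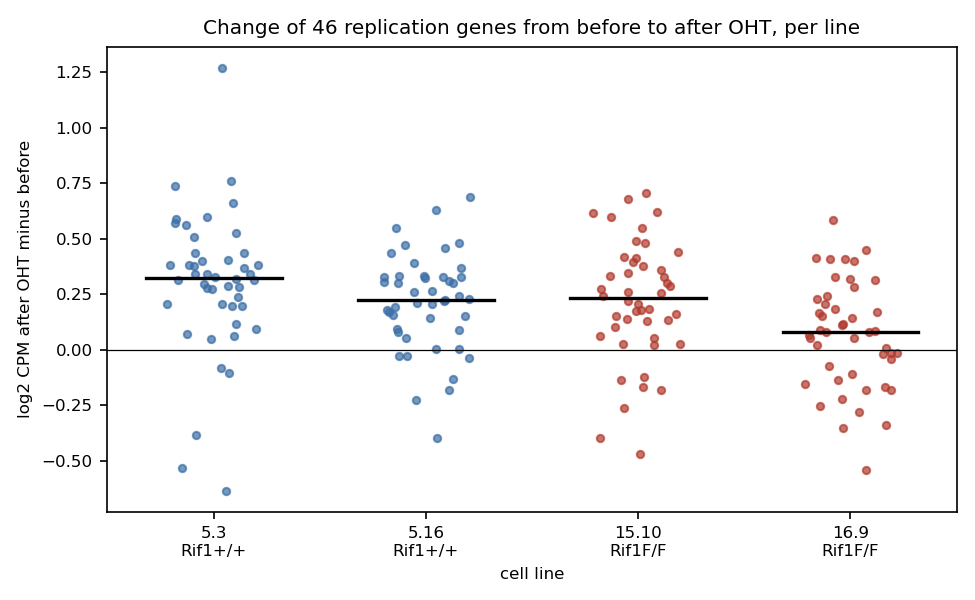
Log2 CPM after OHT minus before, for each of the 46 genes (points) in each of the 4 cell lines, with the line's median as a bar. The medians are 0.32 and 0.23 in the Rif1+/+ lines and 0.23 and 0.08 in the Rif1F/F lines, and the highest point is Ticrr in line 5.3.

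The difference between these changes was tested directly. 6 members were called, all with a change lower in the Rif1F/F lines than in WT (Orc1, Orc4, Gins3, Dbf4, Ticrr and Timeless), and 0 the other way, beside 3.79% and 4.07% of all genes. The median over the 46 was -0.11, against -0.02 over all genes. The count fell without WT replicate 1 or F/F replicate 4 before OHT or either KO mESC library. It rose without F/F replicate 3 before OHT or WT mESC replicate 2. The share of all genes in these settings is not given here. Without WT mESC replicate 1, 2 members were called, beside 1.86% of all genes lower and 2.86% higher. With library totals as the scale the split was 1 higher and 4 lower, with no share of all genes given here.

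From mESC to EB the members divided. In WT, 15 rose and 9 fell, beside 32.5% and 29.8% of all genes, and in KO 15 rose and 7 fell, beside 31.4% and 27.6%, so in both genotypes the share called was near or under that of all genes. Without WT mESC replicate 1, 12 rose and 9 fell in WT, beside 27.2% and 28.3%. With library totals as the scale the KO split was 19 and 5. Rising in both genotypes were Mcm2, Orc6, Tipin, Rfc2, Rfc3 and Rfc5 (6 of 15 in each), and falling in both were Gmnn, Mcm4, Pola1 and Ticrr (4 of 9 and 4 of 7). Of these 10, Rfc3 and the 4 that fell kept both calls in every alternative. The overlap of the 2 genotypes over all genes is not given here. Without 1 library the KO count was 12 in all without KO mESC replicate 3 or 4, 13 without KO EB replicate 3 and 14 without KO EB replicate 4, against 22 with them. The clamp and loader genes rose in 4 of 6 in WT and 4 of 6 in KO, the latter 2 without KO mESC replicate 4, beside the shares of all genes just given. The EB culture and the flow cell cannot be told apart here. The genotype difference departed in EB from that in mESC for 5 members upward and 7 downward, beside 14.8% and 13.7% of all genes. Without WT mESC replicate 1 these were 3 and 6, beside 11.3% and 10.6%. Set against the difference before OHT, 3 departed upward and 13 downward, beside 15.5% and 15.7%, and with library totals as the scale 5 and 8. Without KO EB replicate 3 or 4, 10 departed from the difference before OHT in all. The downward ones included 5 of 6 polymerase and primase genes, all but Prim2, of which Pold1 was called in every alternative and the other 4 were lost in 2 (Pola2), 4 (Pole), 6 (Pola1) and 7 (Prim1) of 14 alternatives.

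Neighbouring gene sets are given for comparison, by counts. The shares of all genes higher and lower were 19.8% and 18.6% in KO mESC, 20.7% and 19.7% in KO EB and 19.9% and 17.5% in F/F before OHT. Of 30 other replication genes, such as topoisomerases, ligase and alternative clamp loaders, 4 were higher and 8 lower in KO mESC, 4 and 10 in KO EB, and 3 and 7 in F/F before OHT. The lower ones were 26.7%, 33.3% and 23.3% of the set. With library totals as the scale the mESC counts were 4 and 5. In mESC these counts were 2 and 4 without WT mESC replicate 1, 2 and 6 without KO mESC replicate 3 and 1 and 3 without KO mESC replicate 4, and in EB they ran from 2 to 3 higher and 8 to 9 lower with 1 library left out. Before OHT 2 to 4 were higher and 5 to 6 lower with 1 left out. Dna2, a nuclease of flap processing, was lower in all 3 (-0.40 ± 0.06, adjusted p = 8.4e-05 before OHT, -0.41 ± 0.06, adjusted p = 7.3e-05 in mESC and -0.70 ± 0.06, adjusted p = 1.6e-07 in EB). Chtf18, a subunit of an alternative clamp loader, was higher before OHT (0.60 ± 0.09, adjusted p = 6.9e-05) and in KO mESC (0.71 ± 0.09, adjusted p = 1.2e-05). Top2a, the topoisomerase of mitosis and replication, was lower in KO mESC (-0.69 ± 0.07, adjusted p = 5.0e-07), and Pold2, the partner subunit of Pold1, was lower in KO EB (-0.67 ± 0.08, adjusted p = 7.4e-06). Of 10 nucleotide supply genes, 2 were higher and 3 lower in KO mESC, 1 and 2 in KO EB and 2 and 3 before OHT, each 10.0% to 30.0% of the set, with Tyms, thymidylate synthase, lower in KO EB (-0.76 ± 0.10, adjusted p = 1.1e-05). Of 24 E2F and G1/S regulators, 5 were higher and 7 lower in KO mESC, 7 and 5 in KO EB and 5 and 7 before OHT, each 20.8% or 29.2% of the set. With library totals as the scale the nucleotide supply genes in KO EB were 2 and 2. With 1 library left out, the counts of nucleotide supply genes ran from 0 to 2 higher and 1 to 3 lower in the 3 conditions, and those of the regulators from 3 to 6 and 3 to 7. Ccnd1, cyclin D1, was lower in F/F before OHT (-1.87 ± 0.08, adjusted p = 6.9e-12) and in KO mESC (-0.96 ± 0.07, adjusted p = 2.6e-08).

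Of 20 genes of G2 and mitosis, 7 were lower in the Rif1F/F lines before OHT, 17 in KO mESC and 10 in KO EB, and none was higher, beside 17.5%, 18.6% and 19.7% of all genes lower. The rest did not pass, and the difference was positive for 5, 0 and 6 of the 20. On the scale of library totals 10 were lower before OHT, 15 in mESC and 7 in EB, where 1 was higher. Median differences were -0.12, -0.43 and -0.17. Their summed level was 4367 and 4468 CPM in WT and 3984 and 4005 CPM in F/F before OHT, 4825 and 4390.5 CPM in WT and 3404 and 3348 CPM in KO mESC, and 4483 and 4524 CPM in WT and 4003 and 4090.1 CPM in KO EB. The KO mESC libraries were the 2 lowest of the 12. Without WT mESC replicate 1, 15 of 20 were lower in KO mESC, and in KO EB 6 were without WT EB replicate 2 and 7 without any other 1. Nusap1, a spindle protein, differed by -1.03 ± 0.07, adjusted p = 4.2e-09 in mESC and -0.43 ± 0.07, adjusted p = 6.5e-05 in EB (log2, KO minus WT). With OHT, G2/M genes fell in 12 of 20 and rose in 0 in the Rif1F/F lines, in which MCM2-7 rose in 5 of 6, whereas in WT 7 rose and 3 fell, beside 21.5% of all genes lower in the Rif1F/F lines and 24.9% higher and 24.2% lower in WT. In WT with library totals as the scale 5 rose and 4 fell. In WT the counts were 5 and 1 without WT replicate 1 before OHT, 8 and 0 without WT replicate 2 before OHT and 10 and 1 without WT mESC replicate 2. The part that cell cycle distribution plays in the members' differences was not tested, since no measure of it other than these transcripts was in the files.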

How the data were processed

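The values analysed are whole-number read counts per gene symbol, which the authors deposited without normalization for 12 libraries in 1 table. BWA, HTSeq, DESeq2 and genome build mm9 are named, without versions, in the submitters' processing notes. Whether HTSeq used strand is not stated in the sources used here. The test was the quasi-likelihood F test of edgeR 4.0.16 (R 4.3.3) on 1 model with a mean per group, after filterByExpr and TMM scaling, with Benjamini-Hochberg adjustment over all 17115 genes tested, called at an adjusted p under 0.05. Levels are CPM of TMM-scaled library sizes. The lowest count of a member in a library was 546, and counting error was not separated from the spread between libraries. The 10 comparisons set genotypes against each other within a condition, conditions within a genotype, and genotype differences between conditions. Members and gene lists were chosen with earlier results of these data known. Values by library are given for the called members with the largest difference: up to 6 per direction for comparisons of genotypes and of genotype differences, and up to 4 for the others. Alternatives were the edgeR test with size factors of the DESeq2 kind, called DESeq2 size factors here, and the Wald test of DESeq2 1.42.0. Others were library totals as the scale, no filter on low counts and the groups compared alone. A block for cell line and leaving out each library were also used. The same line gave 1 library per condition, so the numbers pair the samples across conditions. Deviations of same-line libraries from their group means correlated at -0.14 to 0.14. The negative values were those of WT before OHT, -0.14 with WT mESC and -0.10 with WT EB. WT mESC with WT EB gave 0.14. The pairing of WT before OHT by line rests on the titles alone. Exon lengths, overlaps and shared 50-base words come from GENCODE, promoters from RefSeq.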

Additional observations from a re-analysis of the deposited data

Results flagged for a closer look

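Genotype differences that departed between conditions, by the edgeR test of the departure itself, are collected here as log2 values. They call for a closer look because the same genotype comparison gave unlike values in 2 conditions. No explanation was tested for any of them.

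KO against WT mESC, relative to F/F against WT before OHT, departed by -0.44 for Orc1, -0.35 for Orc4, -0.59 for Gins3, -0.39 for Dbf4, -0.60 for Ticrr and -0.42 for Timeless. The targeted gene Rif1 departed by -0.68. Among the members, Gins3 alone was called in every alternative.

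KO against WT EB, relative to KO against WT mESC, departed upward by 0.30 for Orc3, 0.42 for Orc4, 0.27 for Orc5, 0.63 for Mcm9 and 0.39 for Rpa2, and by 0.43 for Rif1. The downward departures were -0.73 for Cdt1, -0.34 for Mcm5, -0.47 for Gins2, -0.38 for Recql4, -0.53 for Pola2, -0.99 for Pold1 and -0.40 for Pcna. Cdt1, Pola2, Pold1, Orc4, Mcm9 and Rpa2 were called in every alternative. WT mESC replicate 1 was the lowest library for Cdt1 and Pold1, and without it both departures were still called.

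KO against WT EB, relative to F/F against WT before OHT, departed upward by 0.78 for Mcm9, 0.42 for Rfc3 and 0.60 for Rpa2, all called in every alternative. The downward departures were -0.45 for Mcm5, -0.58 for Gins2, -0.76 for Ticrr, -0.35 for Recql4, -0.59 for Timeless, -0.43 for Pola1, -0.36 for Pola2, -0.34 for Prim1, -0.71 for Pold1, -0.31 for Pole, -0.28 for Rfc1, -0.44 for Rfc5 and -0.38 for Rpa3, of which Mcm5, Gins2, Ticrr, Timeless, Pold1 and Rfc5 were called in every alternative.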

How the results depend on the processing

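Over 203 single-gene calls, those of Rif1 included, there were 2112 alternative values. Of these, 1795 kept their direction and call, 317 kept the direction and lost the call, and 0 changed sign. The results were taken because they were called, and the alternatives reuse all or most of the same libraries. The lack of sign changes is therefore no separate support. With 1 library left out, the number of members called ran from 11 to 17 for F/F against WT before OHT, 11 to 23 for KO against WT mESC, 13 to 16 for KO against WT EB, 26 to 37 for OHT in WT, 13 to 25 for OHT in the Rif1F/F lines, 17 to 21 for EB against mESC in WT and 12 to 14 in KO. For the departures of the genotype difference it ran from 1 to 13 in mESC against before OHT, 8 to 17 in EB against mESC and 10 to 20 in EB against before OHT. The departure in mESC from before OHT moved most: 6 members were called, 11 with no filter on low counts, 10 with the DESeq2 Wald test and 1 with the groups compared alone. EB against mESC in KO rose from 22 to 34 members with those groups alone. The cause was not tested. Where no share of all genes stands beside a count of members under an alternative, the count was not set against that share. With the replicate block for cell line, the counts were 34 for OHT in WT, 24 for OHT in the Rif1F/F lines, 23 and 19 for EB against mESC in WT and KO, and 6, 10 and 16 for the 3 departures. The block ended the calls of Gins3, Pola2 and Rfc1 for EB against mESC in KO, beside those of Cdc7, Orc3, Orc4 and Orc5 given with the results, and it ended no other call named here. With the numbers of WT before OHT crossed in the block, 39 members were called for OHT in WT, 11 for the departure in mESC and 17 for that in EB against before OHT, an alternative chosen after seeing the data. The smallest difference called for a member was -0.15 (Rfc1, EB against mESC in KO), and the lowest count of a member in any library was 546.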
